A study of Arabidopsis thaliana with 36 samples.

Results

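The 10 genes described here make and destroy abscisic acid, the plant hormone of drought, seed dormancy and closed stomata. They were taken by name and locus from a list: NCED3, NCED5, NCED6, NCED9, ABA1, ABA2, AAO3, CYP707A1, CYP707A2 and CYP707A3, out of 32548 genes in the tables. Of these, 9 passed the filter on low values, a mean deposited value of at least 1, as did 23297 genes in all. NCED6 had no read in any library.

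Messenger RNA was measured in whole 12-day-old Arabidopsis thaliana seedlings, 3 libraries for each of 12 genotypes. They had grown on plates of Murashige and Skoog medium, under days of 16 h at 23 °C and nights of 8 h at 22 °C, and no stress treatment is named. The controls were wild type (wt), and the 11 mutants were homozygous for lesions in subunits of SWI/SNF complexes, the machines that spend ATP to slide or evict nucleosomes. They were brm-/- (brm), brd1-/-brd2-/-brd13-/- (brd1213), brip1-/-brip2-/- (brip12), syd-/- (syd), swi3d-/- (swi3d), sys1-/-sys2-/-sys3-/- (sys123), minu1-/-minu2-/- (minu12), pms2a-/-pms2b-/- (pms2ab), swp73b-/- (swp73b), bcl7a-/-bcl7b-/- (bcl7a/b) and an3-/- (an3). The sources used here do not give the alleles. From knowledge of the study, brm, brd1213 and brip12 stand for the BAS class of complex, syd, swi3d and sys123 for SAS, and minu12 and pms2ab for MAS, named after the ATPases BRM, SYD and MINU. No label says whether a genotype's libraries came from separate plantings, so the p-values measure the spread between these libraries, which may be technical.

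Abscisic acid is made from carotenoids. ABA1, zeaxanthin epoxidase, works early in the plastid; a 9-cis-epoxycarotenoid dioxygenase (NCED) then cuts the carotenoid to xanthoxin, the committed and usually limiting step; ABA2, a short-chain dehydrogenase, and AAO3, an aldehyde oxidase, finish the hormone in the cytosol. The CYP707A cytochromes P450 hydroxylate it, which starts its breakdown. In Arabidopsis NCED3 is the form that drought induces in leaves and vascular tissue, NCED6 and NCED9 are known from seeds, CYP707A2 from germinating seeds, and CYP707A3 from seedlings and rehydrated plants.

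The promoters of 5 members are shown because their transcripts carried the largest changes or shared a sequence. Each is the 250 bases before the annotated start in the RefSeq annotation of TAIR10.1, read on the gene's own strand, at chr3:4834016-4834265 (minus) for NCED3, chr1:29492876-29493125 (minus) for NCED9, chr4:10521009-10521258 (plus) for CYP707A1, chr2:12499724-12499973 (minus) for CYP707A2 and chr5:18371022-18371271 (minus) for CYP707A3. Capitals mark the G-box CACGTG, which holds the ABRE core ACGTG, a binding sequence of abscisic acid response factors, once on each strand.
NCED3: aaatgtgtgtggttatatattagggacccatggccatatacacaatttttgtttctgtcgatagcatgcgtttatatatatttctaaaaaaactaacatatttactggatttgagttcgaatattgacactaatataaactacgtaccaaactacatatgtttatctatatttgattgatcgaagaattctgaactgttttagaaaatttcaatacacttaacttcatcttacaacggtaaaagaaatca
NCED9: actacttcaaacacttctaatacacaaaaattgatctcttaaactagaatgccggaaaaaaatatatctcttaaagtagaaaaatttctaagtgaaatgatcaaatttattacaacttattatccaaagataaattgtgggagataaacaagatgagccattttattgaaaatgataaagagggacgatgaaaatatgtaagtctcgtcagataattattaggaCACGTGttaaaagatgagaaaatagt
CYP707A1: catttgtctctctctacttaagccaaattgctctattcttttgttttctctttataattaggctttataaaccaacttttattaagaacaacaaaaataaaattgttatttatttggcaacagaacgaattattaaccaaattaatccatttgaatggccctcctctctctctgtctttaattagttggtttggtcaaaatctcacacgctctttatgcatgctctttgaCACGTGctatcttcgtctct
CYP707A2: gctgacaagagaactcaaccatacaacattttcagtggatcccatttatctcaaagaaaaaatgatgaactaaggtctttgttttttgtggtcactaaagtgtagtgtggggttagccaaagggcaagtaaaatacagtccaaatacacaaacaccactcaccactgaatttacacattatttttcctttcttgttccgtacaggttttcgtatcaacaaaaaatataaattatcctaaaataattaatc
CYP707A3: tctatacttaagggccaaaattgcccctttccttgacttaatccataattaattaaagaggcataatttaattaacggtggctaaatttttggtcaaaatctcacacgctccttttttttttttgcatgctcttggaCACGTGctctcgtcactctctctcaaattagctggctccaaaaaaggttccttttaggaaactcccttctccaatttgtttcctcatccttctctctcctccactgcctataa

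The ABRE core and the G-box were searched on both strands, as was the core of the dehydration-responsive element, whose letters are CCGAC. The G-box lay 26 bases before the start of NCED9, 20 before that of CYP707A1 and 113 before that of CYP707A3, and it was present in 6.49% of 27443 promoters of that length. ABA1 held the ABRE core outside a G-box at 131 and at 8 bases before its start, and 22.9% of promoters held that core. ABA2 held the dehydration core 10 bases before its start, as 12% of promoters did somewhere. NCED3, NCED5, NCED6, AAO3 and CYP707A2 held none of these letters in this window. The CYP707A1 and CYP707A3 promoters shared an unbroken run of 23 bases, tttggtcaaaatctcacacgctc, beginning 61 bases before the start of CYP707A1 and 162 before that of CYP707A3; the longest run shared by any other pair of members was 11 bases.

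The libraries held 21070583 to 23761910 reads on genes, and levels are given as CPM (counts per 1e6), where 1 CPM is about 23.1 reads. Replicate libraries correlated across genes at r of 0.981 to 0.990. Of 17 loci mutated in the other 10 mutants, 14 fell in their own mutant, while AN3 was not called in an3 and the BRD1 transcript rose in brd1213. The loci of pms2ab were not looked up, so that label was not checked by transcript. The SYD transcript rose in the libraries labelled syd (146 CPM in wild type against 240.5 CPM), so the transcript level does not check that label. A call means a limma adjusted p under 0.05, from 1 fit to all 36 libraries with Benjamini-Hochberg adjustment over the 23297 genes. All 11 comparisons share the same wild-type libraries.

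Of 99 results (9 tested members in 11 mutants), 49 were called lower than wild type, 4 higher, and 46 were not called. In brm 8 of the 9 tested members were called, against 50.2% of all genes tested, and in pms2ab 7 were, against 58.8%. The counts were 6 in sys123 (27% of all genes), 5 in minu12 (48.9%) and 5 in brd1213 (19.8%). They were 4 in each of brip12 (25%), the libraries labelled syd (23.3%), bcl7a/b (30.5%) and an3 (10.8%), and 3 in each of swi3d (22.2%) and swp73b (49.4%). The shares of members in minu12 and swp73b were near or under the background. The 4 rises were NCED9 in syd, ABA1 in bcl7a/b, ABA2 in sys123 and AAO3 in pms2ab. Leaving out 1 library ended 16 of the 53 calls, and these are named with their gene.

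**Figure D1:**
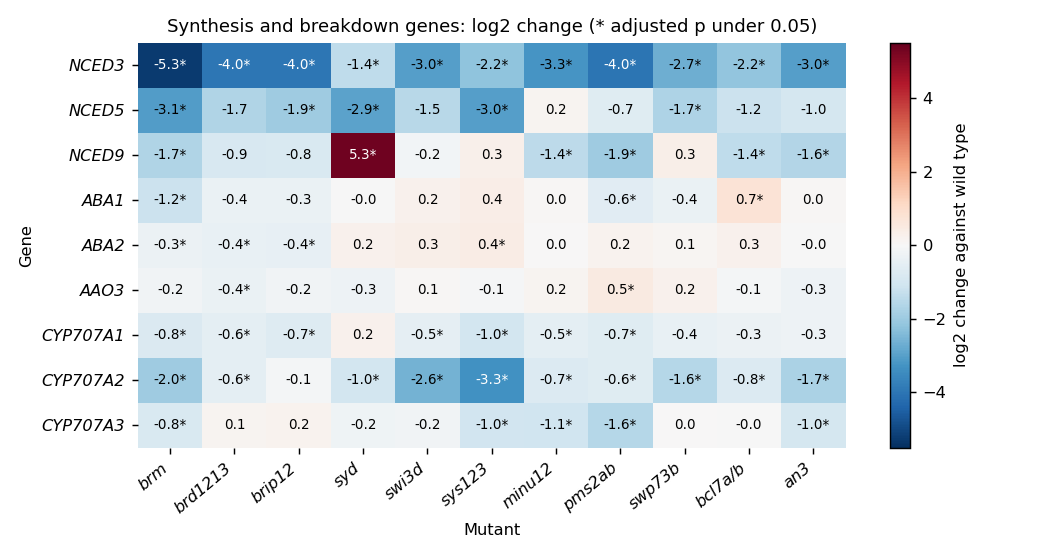
Log2 change against wild type for the 9 tested members (rows) in the 11 mutants (columns), from the fit over 36 libraries. Colour and number give the change, and an asterisk marks a call. The NCED3 row is blue throughout, from -5.28 in brm to -1.38 in syd, and the NCED9 cell of syd stands at 5.33.

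NCED3 fell in every mutant. It is AT3G14440, a single-exon gene on chromosome 3 (4831286 to 4834015, minus strand), and per kilobase of exon it stood in wild type at 57.8 ± 11.8 CPM (SD, n = 3), second among the members to ABA1. In a seedling extract, fewer cells that express a gene and less RNA per cell cannot be told apart. Wild-type libraries held 176, 177 and 121 CPM.

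The brm libraries held 2.34, 5.70 and 4.63 CPM of NCED3. Those of brd1213 held 8.34, 9.46 and 12.3 CPM, and those of brip12 held 9.54, 8.81 and 11.3 CPM. All 9 libraries of the BAS class lay far below wild type, with no overlap. The log2 changes were -5.28 ± 0.40 (SE) in brm (limma adjusted p = 2.43e-11), -3.96 ± 0.40 in brd1213 (1.48e-08) and -3.98 ± 0.40 in brip12 (9.76e-09).

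In the MAS class, minu12 libraries held 13.7, 19.9 and 15.3 CPM and pms2ab libraries held 8.97, 14.2 and 7.06 CPM. These are changes of -3.26 (adjusted p = 7.28e-08, limma) and -4.00 (8.41e-10). In the SAS class, swi3d held 17.3, 19.9 and 19.1 CPM and sys123 held 37.8, 24.7 and 39.3 CPM. Their changes were -3.05 (1.6e-06) and -2.22 (9.89e-05). The libraries labelled syd were the highest of the mutants by mean, at 72.9, 105 and 27.6 CPM. NCED3 fell there by 1.38 ± 0.40 on the log2 scale (adjusted p = 0.0104), and without the third syd library the change was -0.83 with an adjusted p of 0.141. Fitting only wild type and syd gave a limma adjusted p of 0.0715. With the replicate number as a block in that fit, added after seeing the data, it was 0.00774.

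The mutants outside the 3 classes also held less. In bcl7a/b the libraries stood at 37.5, 32.2 and 33.9 CPM and in an3 at 21.2, 16.9 and 18.6 CPM. The swp73b libraries spread widely, at 28.2, 49.4 and 10.4 CPM. The log2 changes were -2.17 (limma adjusted p = 0.000107), -3.04 (2.4e-06) and -2.67 (2.51e-06). The highest mutant library, the second of syd, was still below the lowest of wild type.

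Few genes behaved in this way. Of all genes tested, 0.408% (95 genes) fell in all 11 mutants, 0.116% rose in all, and in 0.571% all 33 mutant libraries lay below all 3 wild-type libraries. Among the 95, NCED3 had the lowest mean change over the mutants, -3.18 on the log2 scale, and it ranked 15 of all genes tested by that mean. Without the third syd library it fell in 10 of the mutants. Ordered by level, wild type stood above syd and brm stood below pms2ab (adjusted p = 0.00868), while no other neighbours in the order, from syd through bcl7a/b, sys123, swp73b, an3, swi3d, minu12, brd1213 and brip12 to pms2ab, differed beyond their spread.

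NCED9 went the other way in 1 mutant. It is AT1G78390, a single-exon gene on chromosome 1 (29490705 to 29492875, minus strand), and wild-type libraries held 0.853, 0.678 and 0.942 CPM. The libraries labelled syd held 65.6, 45.3 and 13.9 CPM. The lowest of them was 8.24 times the highest of the 33 other libraries, 1.69 CPM in swp73b. NCED9 rose in syd by 5.33 ± 0.52 on the log2 scale (limma adjusted p = 3.26e-09), the 16th largest rise among the genes tested in that comparison.

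NCED9 was also higher in syd than in each of the 10 other mutants, by 5.0 to 7.28 (log2), with a largest adjusted p of 1.7e-08. It stayed so without any 1 of the syd libraries, at a smallest difference of 4.54. Of all genes tested, 2.34% were higher in syd than in all 10. The other SAS mutants stayed near wild type: swi3d libraries held 1.34, 0.311 and 0.893 CPM and sys123 libraries held 0.930, 0.860 and 1.26 CPM, and neither was called. The genes on either side did not share the rise, GSTU19 changing by -0.40 in syd and the locus AT1G78400 being listed at no more than 0.328 CPM in any library.

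The make-up of messages over the NCED members differed in the libraries labelled syd, where by mean NCED9 was higher and NCED3 lower. Of the level per kilobase summed over the 4 NCED members, NCED3 made up 97.5 to 98.8% in the wild-type libraries and NCED9 0.474 to 0.959%. NCED2 and NCED4, not members, were outside this sum, and NCED4 stood at 196 CPM in wild type. In the libraries labelled syd, NCED9 made up 53%, 35.1% and 38.7%. NCED3 was lower in the other mutants too, where the share of NCED9 was at most 8.74%. Seed markers were set beside the NCED9 rise: the storage proteins CRA1 and SESA1, the oleosin OLEO1 and the late embryogenesis proteins EM1 and EM6. By limma 0 of these 5 were called in syd, 0 at an unadjusted p under 0.05, and their summed level was 0.250 to 2.05 CPM there against 0.588 to 0.897 CPM in wild type.

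Elsewhere NCED9 was low. It fell in brm (-1.67, limma adjusted p = 0.00845) and pms2ab (-1.95, 0.00195), to means of 0.234 and 0.205 CPM. It was also called lower in minu12 (-1.44), bcl7a/b (-1.41) and an3 (-1.62), with adjusted p of 0.0222, 0.0387 and 0.0411. Those calls were lost without wild-type library 1 or 3 (in an3 also 2). They were lost too without minu12 library 2, bcl7a/b library 1 or 2, or an3 library 2 or 3, at adjusted p of up to 0.061, 0.147 and 0.264, and edgeR on recovered reads gave 0.0505, 0.0987 and 0.203.

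**Figure D2:**
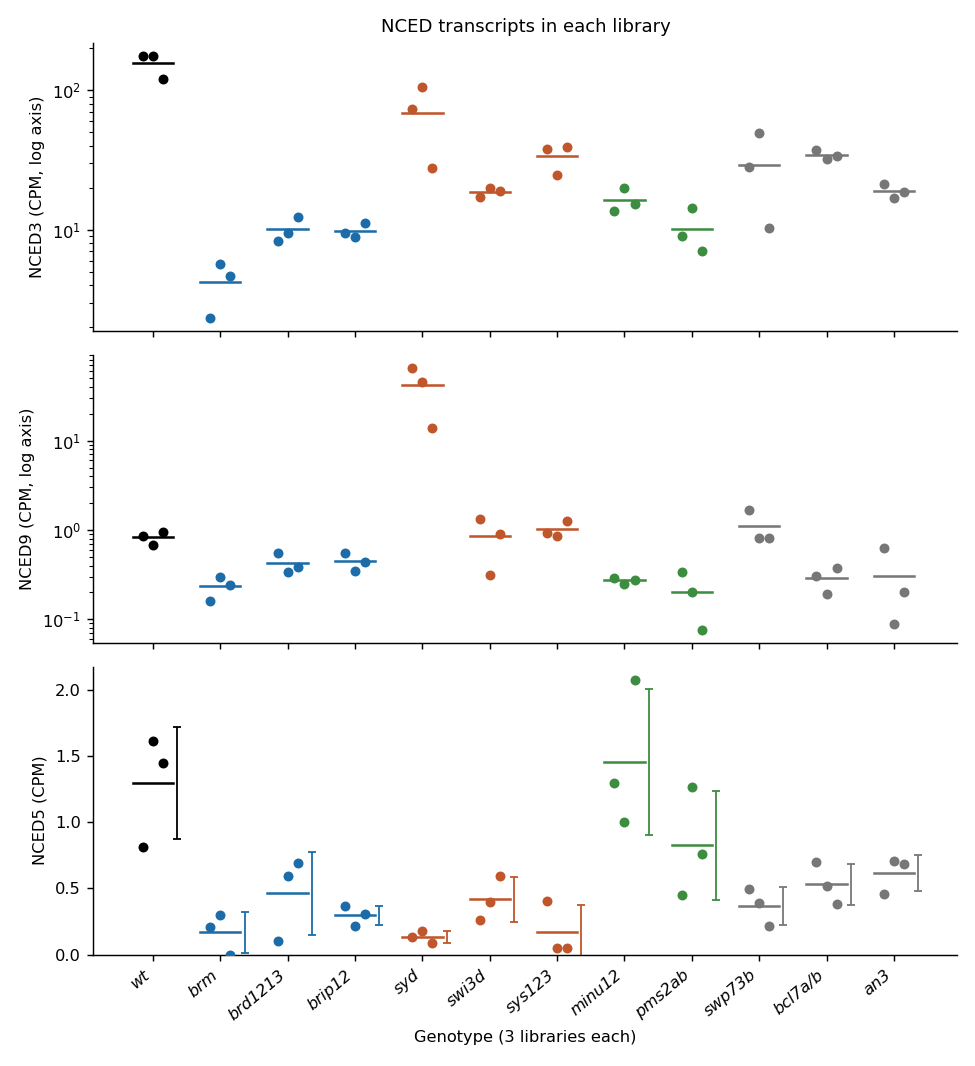
Levels of NCED3, NCED9 (log axes) and NCED5 (linear axis) in CPM, 1 point per library and 1 column per genotype. Black marks wild type, blue BAS, orange SAS, green MAS and grey the mutants in no class. Horizontal lines are means of 3 libraries and bars on the linear panel are SD. All mutant points of NCED3 lie below the lowest wild-type point of 121 CPM, and the syd points of NCED9, 13.9 to 65.6 CPM, lie above all others.

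NCED5 (AT1G30100), a minor form on chromosome 1 (10571310 to 10573365, plus strand), was rare. Wild-type libraries held 0.815, 1.62 and 1.45 CPM. It fell in brm (0.205, 0.300 and 0 CPM), syd (0.130, 0.175 and 0.0844 CPM) and sys123 (0.409, 0.0471 and 0.0511 CPM). These libraries lay below all of wild type, and the changes of -3.06, -2.93 and -3.04 had limma adjusted p of 0.000161, 0.00075 and 0.000558. NCED5 was also called lower in brip12 (-1.95, adjusted p = 0.0218) and swp73b (-1.71, 0.0244), calls that were lost without wild-type library 2 or 3 or without brip12 library 2 or swp73b library 3, at adjusted p of 0.0631 to 0.107. In minu12 its libraries, at 1.3, 1.0 and 2.07 CPM, overlapped those of wild type (0.16, adjusted p = 0.855), as did those of pms2ab. On recovered reads edgeR also called NCED5 lower in brd1213 (adjusted p = 0.0453) and swi3d (0.0261), where limma gave -1.65 (0.0619) and -1.55 (0.0756).

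For NCED6 (AT3G24220), a seed form on chromosome 3, a count of 0 in a library allows up to 3 reads, or 0.126 to 0.142 CPM. NCED2, a further form, stood at 0.0723 CPM in wild type and was called in no mutant.

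The steps before and after cleavage changed less. ABA1 (AT5G67030), on chromosome 5 (26753469 to 26757402, minus strand, 16 exons), had the highest level per kilobase of the members, 117.5 ± 22.7 CPM in wild type. Wild-type libraries held 329, 350 and 239 CPM. It fell in brm, to 119, 159 and 127 CPM (-1.17 ± 0.17, limma adjusted p = 9.19e-07), and in pms2ab, to 174, 217 and 198 CPM (-0.63 ± 0.17, 0.00189). It rose in bcl7a/b, to 540, 490 and 489 CPM (0.74 ± 0.17, 0.00098). In these 3 mutants no library overlapped wild type.

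The third wild-type library was the lowest of its group for both NCED3 and ABA1. Without it ABA1 was also called lower in brd1213 (adjusted p = 0.0301), brip12 (0.0357) and swp73b (0.0113), where the changes with all libraries were -0.37, -0.35 and -0.37 and not called. ABA1 stood at 301 ± 33 CPM in syd and at 315 ± 56 CPM in minu12, both within the wild-type spread (306 ± 59 CPM, SD, n = 3).

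ABA2 (AT1G52340), on chromosome 1 (19489794 to 19491650, minus strand), was lower in the BAS mutants and higher in sys123. Wild-type libraries held 8.40, 7.97 and 6.83 CPM. In brip12 they held 5.46, 5.32 and 6.17 CPM, all below wild type (-0.45 ± 0.12, limma adjusted p = 0.008). In sys123 they held 10.3, 10.4 and 10.13 CPM, all above wild type (0.42 ± 0.12, 0.0131), a call lost without the third wild-type library (0.0915). ABA2 was called lower in brm (-0.32, 0.032) and brd1213 (-0.39, 0.024) too, but each of these calls was lost without wild-type library 1 or 2, without brm library 1 or 2, or without brd1213 library 1 or 3, at adjusted p of 0.0694 to 0.133. ABA2 overlaps AT1G52330 on the other strand, which held 2.3 CPM in wild type and was called in no mutant, and the sources used here do not say whether reads were assigned by strand.

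AAO3 (AT2G27150), on chromosome 2 (11601727 to 11608450, plus strand), was called in 2 of the 11 mutants. Wild-type libraries held 25.5, 26.2 and 24.0 CPM. It rose in pms2ab, whose libraries at 35.7, 33.2 and 37.1 CPM lay above all of wild type (0.48 ± 0.11, limma adjusted p = 0.000397). It was called lower in brd1213, at 19.6, 17.9 and 21.7 CPM (-0.36 ± 0.11, 0.02), and that call was lost without wild-type library 1 (0.0567), wild-type library 2 (0.065) or the second brd1213 library (0.112). A small gene on its other strand, AT2G27160, held at most 0.0463 CPM.

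**Figure D3:**
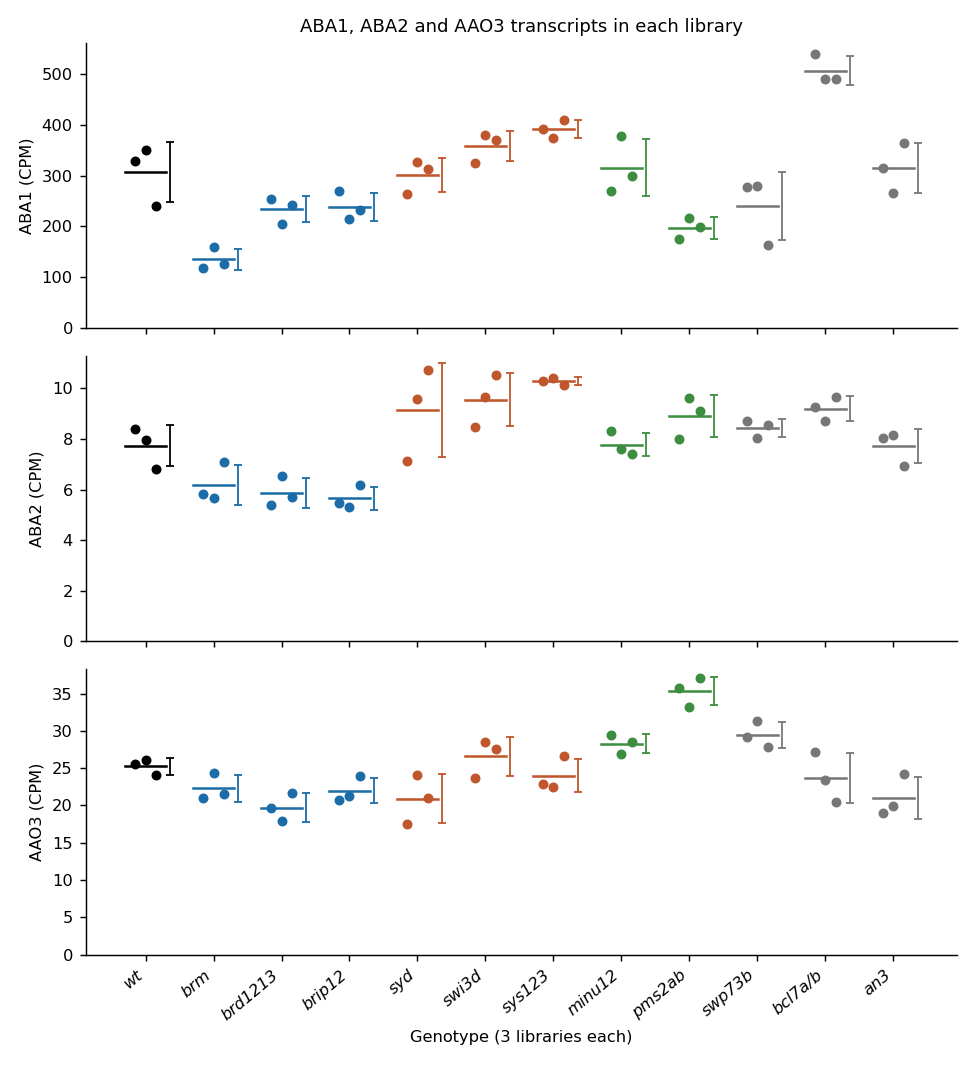
Levels of ABA1, ABA2 and AAO3 in CPM on linear axes from 0, 1 point per library coloured by class as for the NCED genes, with the mean of 3 libraries as a line and the SD as a bar. ABA1 points of bcl7a/b (489 to 540 CPM) lie above wild type and those of brm (119 to 159 CPM) below, and AAO3 points stay between 17.6 and 37.1 CPM throughout.

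No CYP707A gene was called higher than wild type in any mutant, and 22 of 33 results were called lower, where 16.8% of all gene results over the 11 comparisons were called lower (5.74% in an3 to 29.8% in pms2ab). CYP707A2 (AT2G29090), on chromosome 2 (12494826 to 12499723, minus strand), fell in 10 of the 11 mutants. Wild-type libraries held 7.78, 7.93 and 9.24 CPM.

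CYP707A2 fell furthest in 2 SAS mutants. The sys123 libraries held 0.744, 0.635 and 1.03 CPM and the swi3d libraries 1.78, 1.19 and 1.15 CPM. The changes were -3.33 ± 0.20 in sys123 (limma adjusted p = 1.62e-12) and -2.59 ± 0.20 in swi3d (2.02e-10), and these ranked 33 and 52 from the bottom of all genes tested. The libraries labelled syd, also of the SAS class, held 4.82, 4.98 and 2.97 CPM (-0.99 ± 0.20, 0.000392). CYP707A2 was higher in syd than in either of its class partners, by 1.59 and 2.33 on the log2 scale (adjusted p = 6.65e-07 and 4.38e-10, limma).

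Among the other mutants CYP707A2 fell in brm to 2.16, 2.097 and 2.05 CPM (-1.96, limma adjusted p = 4.47e-09). The an3 libraries held 2.38, 2.12 and 2.93 CPM (-1.74, 4.28e-07) and the swp73b libraries 2.40, 3.42 and 2.54 CPM (-1.57, 2.62e-07). Smaller falls, of 0.75, 0.74 and 0.65 on the log2 scale, were found in bcl7a/b, minu12 and pms2ab. The brip12 libraries, at 8.89, 7.5 and 6.96 CPM, overlapped wild type (-0.10, 0.771). In brd1213 the call (-0.56, adjusted p = 0.0488) was lost in each of the 6 refits that left out 1 library, at adjusted p of 0.0716 to 0.151, and with the replicate number as a block (0.055).

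CYP707A1 (AT4G19230), on chromosome 4 (10521259 to 10523961, plus strand), fell in 7 mutants by smaller amounts. Wild-type libraries held 12.3, 12.2 and 13.7 CPM. It fell most in sys123, to 5.35, 5.24 and 8.44 CPM (-1.03 ± 0.19, limma adjusted p = 0.000111). All 3 BAS mutants and both MAS mutants lay at means of 7.40 to 8.88 CPM, with changes of -0.78 to -0.52. The calls in brd1213, swi3d and minu12 were the weakest (0.0313, 0.049 and 0.0205): leaving out 1 library ended them in 5, 6 and 2 of 6 refits, at adjusted p of up to 0.116, 0.131 and 0.109. Those libraries were each of wild type and brd1213 libraries 2 and 3, each of wild type and swi3d, and wild-type library 3 and minu12 library 2.

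The libraries labelled syd stood apart for CYP707A1 as well, at 23.4, 14.98 and 9.58 CPM. They straddled wild type, so that the change of 0.24 was not called (limma adjusted p = 0.39); without the third syd library it was called higher (0.0137). CYP707A1 was higher in syd than in all 10 other mutants, by 0.52 to 1.27 on the log2 scale with a largest adjusted p of 0.033. Without the first syd library that held for 6 of the 10, and without the second for 9.

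CYP707A3 (AT5G45340), on chromosome 5 (18368532 to 18371021, minus strand), fell in both MAS mutants. Wild-type libraries held 17.7, 14.1 and 13.98 CPM, pms2ab libraries 5.32, 5.47 and 4.42 CPM and minu12 libraries 6.71, 6.53 and 7.79 CPM. The changes were -1.58 ± 0.28 (limma adjusted p = 1.9e-05) and -1.11 ± 0.28 (0.00161), with no overlap. It also fell in sys123, to 7.24, 8.75 and 6.28 CPM (-1.04, 0.00647), and was called lower in brm (-0.84, 0.0144) and an3 (-0.97, 0.0218). The brm call was lost without the first wild-type or the second brm library and the an3 call without the first wild-type, the first an3 or the second an3 library, at adjusted p of 0.0524 to 0.101.

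The other BAS mutants held CYP707A3 at wild-type levels, 16.8 ± 1.2 CPM in brd1213 and 17.3 ± 2.2 CPM in brip12 against 15.3 ± 2.1 CPM (SD, n = 3). In syd the libraries ran from 29.9 through 10.4 to 7.08 CPM (-0.22, adjusted p = 0.635), and without the first it was called lower (0.00345).

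**Figure D4:**
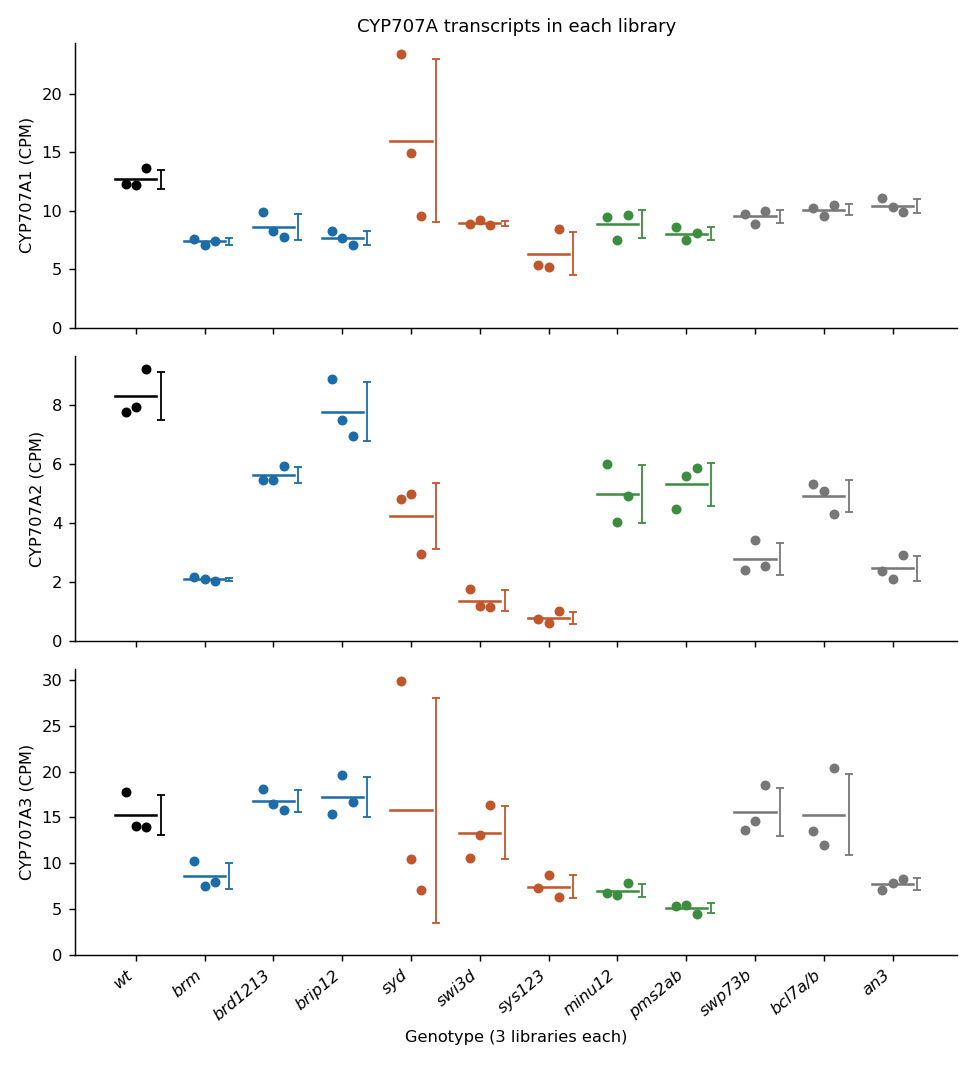
Levels of CYP707A1, CYP707A2 and CYP707A3 in CPM on linear axes from 0, 1 point per library coloured by class as for the NCED genes, with the mean of 3 libraries as a line and the SD as a bar. CYP707A2 is lowest in sys123 (0.635 to 1.03 CPM), CYP707A3 is lowest in pms2ab (4.42 to 5.47 CPM), and the 3 syd points are spread for CYP707A1 and CYP707A3.

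Whether the members differ between classes of complex was asked of the mean over each class's mutants. Called differences numbered 7 of 9 between BAS and SAS (56.2% of all genes tested), 6 between BAS and MAS (64.7%) and 8 between SAS and MAS (69.6%). NCED3 was lower in BAS than in SAS (log2 difference -2.19 ± 0.23, limma adjusted p = 2.41e-09) and than in MAS (-0.78, 0.00924). The second difference rested on brm: without it BAS minus MAS was -0.34 (0.293), and neither brd1213 nor brip12 differed from minu12 (-0.70 and -0.71; 0.145 and 0.128) or pms2ab (0.04 and 0.02; 0.946 and 0.966) past the threshold. The share between BAS and MAS was near the background. Without syd the BAS minus SAS difference of NCED3 was -1.77 (1.09e-06).

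By class mean NCED5 was lower in BAS and in SAS than in MAS (-1.96 and -2.25, limma adjusted p = 0.000103 and 1.4e-05). Against pms2ab alone, brm (-2.38, 0.00241), syd (-2.25, 0.00261) and sys123 (-2.36, 0.00162) were lower. Past the threshold brd1213 (-0.98, 0.186), brip12 (-1.27, 0.0799) and swi3d (-0.87, 0.245) did not differ from pms2ab. ABA1 and ABA2 had their lowest class means in BAS, with BAS minus SAS at -0.83 and -0.70. Without brm, ABA1 did not differ between BAS and MAS past the threshold (-0.07, 0.605). By class mean CYP707A2 was lower in SAS than in BAS and in MAS. BAS minus SAS was 1.43 (limma adjusted p = 1.3e-11) and SAS minus MAS -1.61 (3.54e-12). The libraries labelled syd were below brip12 (-0.895, 0.000713) but above brm (0.965, 0.000159). Past the threshold they did not differ from brd1213 (-0.44, 0.0919), minu12 (-0.25, 0.301) or pms2ab (-0.35, 0.135). CYP707A3 had its lowest class mean in MAS (BAS minus MAS 1.18, 1.64e-06; SAS minus MAS 0.86, 0.000123), but neither brm nor sys123 differed from minu12 past the threshold (0.28 and 0.07; 0.432 and 0.84). For NCED9 BAS minus SAS was -2.95, and -1.198 without syd (0.00355). For CYP707A1 it was -0.25 (0.0463), 0.08 without syd (0.579) and -0.21 without brm (0.166).

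The rest of the pathway was described from lists chosen for this purpose. Of 10 other synthesis genes, the number called ran from 2 in swi3d to 7 in pms2ab, where 22.2% and 58.8% of all genes were called. BCH2, a carotene hydroxylase that supplies zeaxanthin, fell in 7 mutants, most in pms2ab (-3.02) and minu12 (-1.58). VDE, the de-epoxidase that works against ABA1, rose in syd (1.04), sys123 (0.78), swi3d (0.54) and bcl7a/b (0.46) and fell in brm, minu12, pms2ab and swp73b, the last 4 by 0.44 to 1.095. AAO2, an aldehyde oxidase related to AAO3, rose in 8 mutants, most in brm (0.94). ABA3, which adds sulfur to the molybdenum cofactor that AAO3 needs, was called in none, between -0.12 and 0.14.

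Of 7 other breakdown and conjugation genes, 6 were tested. BG1, a glucosidase that frees abscisic acid from its glucose ester, stood at 362 CPM in wild type. It fell in brd1213 (-1.56), brm (-1.32) and syd (-1.06) and rose in pms2ab (2.53), swp73b (1.54) and sys123 (1.298). CYP707A4 fell in brm (-1.89), swp73b (-1.34) and brd1213 (-1.299). Among 4 transport genes DTX50, an exporter, fell in 9 mutants, by 1.05 in brm to 3.23 in sys123, and was not called in brd1213 and brip12.

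Genes that abscisic acid induces were set beside NCED3. Of 12, 10 or 11 fell in each of brm, brd1213, brip12, minu12, pms2ab and an3. In these mutants 10.8% (an3) to 58.8% (pms2ab) of all genes tested were called in either direction. The list medians there were -2.09 to -1.67, against medians of -0.02 to 0.02 over all genes tested. HAI1 and HAI2, phosphatases that damp the hormone's signal, changed by -5.74 and -5.32 in brm and by -5.54 and -5.88 in an3. In bcl7a/b 8 fell, in swi3d 7 fell and 2 rose, in swp73b 6 fell, and in sys123 4 fell and 4 rose. In these mutants 22.2% (swi3d) to 49.4% (swp73b) of all genes tested were called in either direction.

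In the libraries labelled syd, where 23.3% of all genes tested were called, 1 of the 12 fell, HB12, and 2 rose, RD29B and HAI3. HAI3 stood at 0.267, 0.0908 and 0.0353 CPM in wild type and at 51.6, 33.5 and 7.07 CPM in syd (7.28), in the same order of libraries as NCED9. RD29B, a late drought gene, rose in the 3 SAS mutants (1.98, 1.97 and 2.92) and fell in the BAS and MAS mutants and in an3 (-4.53 to -1.63). The summed level of the 12 genes was 680 to 810 CPM in wild type and 561.7 to 1508 CPM in syd. It was 780 to 1127 CPM in sys123, 418 to 713 CPM in swi3d and 313 to 575 CPM in swp73b. In the BAS and MAS mutants, bcl7a/b and an3 it was 163 to 315 CPM.

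**Figure D5:**
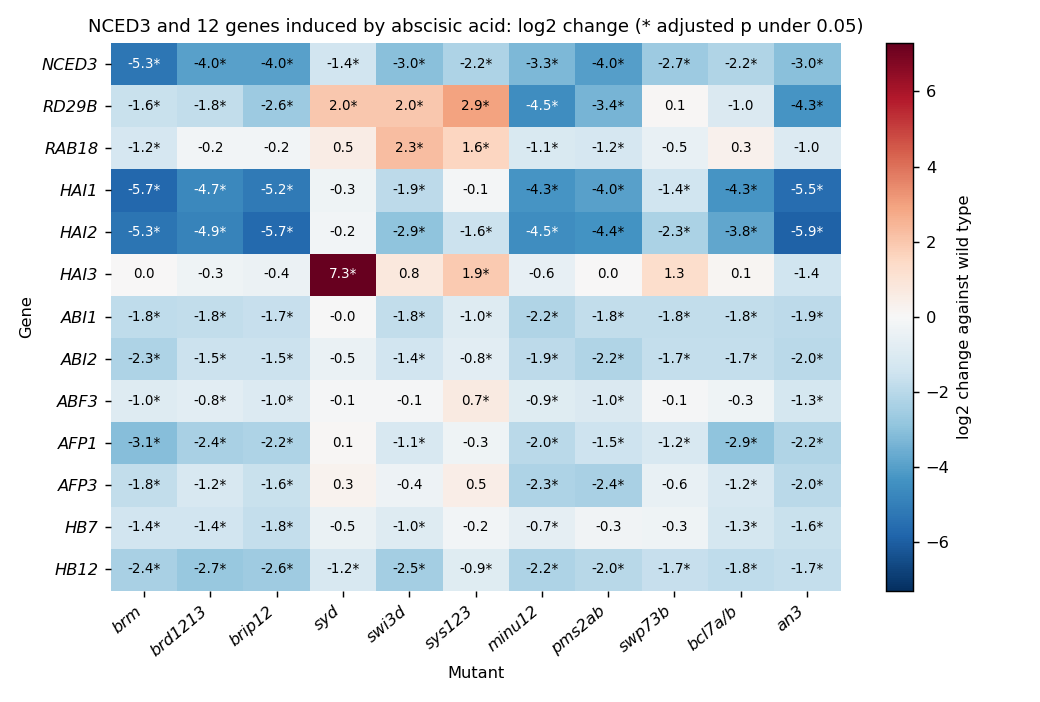
Log2 change against wild type for NCED3 and 12 genes induced by abscisic acid (rows) in the 11 mutants (columns), with an asterisk at each call. NCED3 is called lower in every column, HAI1 and HAI2 reach -5.74 and -5.88, and the syd column holds 3 calls among the 12 genes.

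Of 8 genes of early stress, which touch and wounding also induce, 5 or 6 fell in each of brm, swi3d, sys123, minu12, pms2ab and swp73b (limma), where 11 to 29.8% of all genes fell, and at most 3 in each other mutant. Their median changes ran from -1.78 in sys123 to -0.12 in brip12. FBS1 fell in 10 mutants (-3.79 to -2.68) and was not called in syd (-0.49). WRKY33 fell in 7 and WRKY40 in 6. ERF104 rose in brd1213, brip12, bcl7a/b and an3 (1.003 to 1.57). The 8 genes summed to 532 to 654 CPM in wild type, 214 to 923 CPM in syd and 141 to 559 CPM in the other mutants; their part in the NCED3 result was not tested.

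Markers of the tissues that hold these genes also moved in some mutants. The 4 vascular markers (SUC2, APL, XCP1 and IRX3) all fell in brm, 3 fell in pms2ab, and none was called in brd1213 and brip12. In syd, sys123 and swp73b 2 fell, and in swi3d and minu12 1 fell. In minu12, bcl7a/b and an3 1 rose. The vascular markers summed to 177 to 237.5 CPM in wild type and 81.7 to 277 CPM in the mutants. The 4 guard cell markers (FAMA, KAT1, MYB60 and HT1) all fell in brm, syd, pms2ab and swp73b, and 3 fell in swi3d and sys123. None fell in brd1213, brip12, minu12, bcl7a/b and an3, while 2 rose in an3 and 1 in each of brip12 and bcl7a/b. Their sum was 82.55 to 123 CPM in wild type, 215 to 232 CPM in bcl7a/b and 148 to 163 CPM in an3. It was 27.8 to 124 CPM in the other mutants. Of the 4 leaf markers 3 fell in each of brm, pms2ab and swp73b, 2 in minu12 and brip12 and 1 in brd1213. In bcl7a/b 2 of them rose. Leaf markers summed to 13450 to 30390 CPM over all libraries. Of the 4 root markers 3 rose in swp73b, 2 in brip12 and swi3d and 1 in sys123 and pms2ab. In brm and pms2ab 1 fell. Root markers summed to 58.5 to 153 CPM. Flower markers summed to at most 9.50 CPM. Seed markers rose in brm (5 of 5), pms2ab (4), minu12 (3) and swp73b (3), with sums of up to 203 CPM in 1 minu12 library. Over the 11 mutants, 10.8% (an3) to 58.8% (pms2ab) of all genes tested were called in either direction. The part of the markers in the results on the members was not tested.

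Levels of members were also compared with all other genes over the 12 genotype means, as a description in which each point shares its libraries. The genes most like NCED3 were CDF3 (Pearson r = 0.964), PRR9 (0.952) and PUB19 (0.926), a flowering-time factor of the Dof family, a clock gene and a ubiquitin ligase. Each of these 3 fell in 10 mutants, and PUB19 held 148 CPM in syd against 117 CPM in wild type. The genes most like NCED9 were TRM15 (0.969), BI1 (0.961) and HAI3 (0.956). These r values rest largely on syd, where NCED9 held at least 13.9 CPM, against at most 1.69 CPM in any other library. TRM15, BI1 and HAI3 had means of 71.2, 144 and 30.7 CPM in syd, against 40.8, 76.1 and 0.131 CPM in wild type. For CYP707A2 the closest were RHL41, also named ZAT12 (0.888), EDS1 (0.876) and ECT6 (0.867), and for ABA1 IAA14 (0.982), NCED4 (0.970) and PGRL1B (0.965).

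For ABA2 the closest were NPC2 (0.987), BGLU40 (0.944) and RAP2.7 (0.932), and for AAO3 GRF1 at AT4G09000 (0.951), GGP1 (0.929) and STR16 (0.923). NCED5 was closest to PHT1;1 (0.899), LAC13 (0.893) and ADT5 (0.886). CYP707A1 was closest to NAC075 (0.824), ADK1 (0.817) and FAB1C (0.802), and CYP707A3 to GLR2 (0.839), ILL3 (0.807) and LOX5 (0.780). Between members, r over the 12 means ran from -0.49 (ABA2 with CYP707A2) to 0.66 (NCED3 with CYP707A1).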

How the data were processed

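Single 50-bp reads were made from total RNA of seedlings, per the labels' protocols. HISAT2, edgeR and the build TAIR10 are listed in the submitters' processing notes; the sources used here do not name an annotation or a counter. The deposited files, 11 tables, hold a normalized signal of the form of edgeR's adjusted counts, with the wild-type columns repeated. No value column was left unmapped (0). Inverting the adjustment gave whole reads for 99.9986% of 1171728 values, within a tolerance of 1e-04. CPM is the deposited signal at the common library size. The members, lists and tests were chosen with earlier results of these data known. The test planned for a normalized signal was limma 3.58.1 (R 4.3.3) with a trend on log2(value + 1), in 1 fit of 36 libraries. The added 1 shrinks fold changes of genes near 0, but limma's changes were not always smaller than edgeR's. For NCED5 limma gave -1.65 in brd1213 and -1.55 in swi3d, and edgeR gave -1.46 and -1.62. The limma test was tried on simulated data. edgeR 4.0.16 and DESeq2 1.42.0 were run on the recovered reads as alternatives, and edgeR's values are given where calls of the rarest members differ. Leaving out syd libraries between mutants, syd from the SAS mean and brm from the BAS mean was added after seeing the data. So were the fits of only syd or bcl7a/b with wild type that held the replicate number as a block. Same-numbered libraries deviated together with wild type at r over 0.1 in every pair for syd (0.230, 0.133 and 0.167) and bcl7a/b (0.189, 0.149 and 0.238), and not for the other mutants. All loci were matched to RefSeq's TAIR10.1 annotation by locus tag; the 50-base exon windows of the members occur nowhere else in that genome (0 found). Named genes are the members, the lists, the mutated genes and, for each member, the 3 most correlated genes with a symbol and a mean log2 CPM of at least 1. Reads are not independent molecules, and limits for a count of 0 cover counting error only.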

Additional observations from a re-analysis of the deposited data

Results flagged for a closer look

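Differences between mutants, each tested in the fit over all 36 libraries, drew attention where a member was called higher in 1 mutant and lower in another, or where classes differed. Over the 55 pairs of mutants, 3.06 to 64% of all genes tested differed.

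NCED9 was higher in the libraries labelled syd than in brm (log2 difference 6.997), minu12 (6.77), pms2ab (7.28), bcl7a/b (6.74) and an3 (6.95), with limma adjusted p of at most 1.82e-11, and all 3 syd libraries were above all libraries of these mutants. ABA1 was higher in bcl7a/b than in brm (1.92) and pms2ab (1.37). ABA2 was higher in sys123 than in brm (0.74), brd1213 (0.81) and brip12 (0.86). AAO3 was higher in pms2ab than in brd1213 (0.84).

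Between class means, NCED3 differed by -2.19 (BAS minus SAS), -0.78 (BAS minus MAS) and 1.41 (SAS minus MAS). NCED5 differed by -1.96 (BAS minus MAS) and -2.25 (SAS minus MAS), and NCED9 by -2.95 (BAS minus SAS) and 3.51 (SAS minus MAS), or -1.198 and 1.76 without syd. Without brm, the differences of NCED3 (-0.34) and ABA1 (-0.07) between BAS and MAS and of CYP707A1 (-0.21) between BAS and SAS were no longer called (limma adjusted p = 0.293, 0.605 and 0.166). ABA1 differed by -0.83, -0.34 and 0.49, ABA2 by -0.70, -0.50 and 0.20, and AAO3 by -0.15, -0.57 and -0.42, for BAS minus SAS, BAS minus MAS and SAS minus MAS in that order. CYP707A1 differed by -0.25 (BAS minus SAS), CYP707A2 by 1.43 (BAS minus SAS) and -1.61 (SAS minus MAS), and CYP707A3 by 1.18 (BAS minus MAS) and 0.86 (SAS minus MAS). The CYP707A1 difference, that of AAO3 between BAS and SAS and that of ABA2 between SAS and MAS had limma adjusted p of 0.0463, 0.0446 and 0.0247. They were lost in 13 of 18, 11 of 18 and 4 of 15 refits that left out 1 library, with adjusted p of up to 0.164, 0.126 and 0.0838.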

How the results depend on the processing

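Each of the 99 member results was recomputed under median-ratio and library-total scaling, no filter and a stricter one (1 CPM in 3 libraries), pseudocounts of 0.1 and 5, the replicate number as a block, only the groups compared, each library left out, and edgeR and DESeq2 on recovered reads. Of 1602 alternative values, 1493 kept their side of the threshold, 79 were no longer called and 30 became called. The sign changed in 31 of them, 0 of which were of called results. With 1 library left out, the members called numbered 6 to 8 in brm, 1 to 4 in brd1213, 3 to 4 in brip12, 4 to 6 in syd, 2 to 3 in swi3d, 5 to 6 in sys123, 3 to 5 in minu12, 7 in pms2ab, 2 to 4 in swp73b, 3 to 4 in bcl7a/b and 2 to 4 in an3. They numbered 5 to 7 between BAS and SAS, 6 between BAS and MAS and 7 to 8 between SAS and MAS. With the replicate block, 4 members were called in syd and 4 in bcl7a/b, as without it, and CYP707A2 in brd1213 was the only call lost. In a fit of only bcl7a/b and wild type with the block, added after seeing the data, 6 were called. Scaling by library totals, also tried, moved the share of rises among all calls to 36.8% in brip12, 31.7% in sys123, 61.2% in swp73b, 25.3% in bcl7a/b and 32.1% in an3, and shifted the median gene by -0.16 in bcl7a/b. edgeR on recovered reads called 2418 genes (an3) to 13786 genes (pms2ab), against 2509 and 13689 by limma. Depth limits NCED5 and NCED9, whose means were at most 1.46 CPM outside syd. The causes of these changes were not tested.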
